A study of Homo sapiens with 4 samples.

Results

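Genes for the enzymes that write and erase histone lysine methylation were followed in UMSCC74B, a long-established line labelled as head and neck squamous cell carcinoma (HNSCC). Members were all gene names of the KMT, KDM, SETD (with SETDB) and NSD series together with the older names EZH1, EZH2, EED, SUZ12, EHMT1, EHMT2, SUV39H1, SUV39H2, DOT1L, ASH1L, WHSC1, WHSC1L1, SUV420H1, SUV420H2, SMYD2, SMYD3, PHF8 and UTY. This gave 57 of the 29655 names in the tables, and entries with the same name were summed. Wild-type cells carried either a control shRNA (2 libraries) or an shRNA against PRMT5 (2 libraries, labelled PRMT5 KD), and RNA was taken after 72 h in both groups. PRMT5 is a protein arginine methyltransferase, and the study silenced it to ask which genes depend on it. The labels describe plasmid transfection and the methods lentiviral particles, and a single PRMT5 shRNA product is listed. The labels do not say that replicates were separate cultures, so the p-values measure the spread between these libraries, which may be technical.

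Methyl groups on histone lysines are placed by SET-domain enzymes and by DOT1L, and are removed by flavin-dependent (KDM1) or Jumonji (all other KDM) enzymes. Methylation of H3K4 marks promoters and enhancers, that of H3K36 and H3K79 transcribed genes, that of H3K27 genes silenced by Polycomb, and that of H3K9 and H4K20 heterochromatin. Most marks have several writers with their own partners, and related enzymes can prevail in different states, as EZH2 does in dividing and EZH1 in resting cells.

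The target of the shRNA went against its label at the level of RNA. PRMT5 stood at 94.3 and 84.3 CPM (counts scaled by TMM to library size) in the libraries labelled control and at 132.1 and 149.6 CPM in those labelled PRMT5 KD, a log2 fold change of 0.66 (SE 0.12, edgeR FDR 0.00548). Without the library labelled control replicate 2 the value was 0.58 with an FDR of 0.0678. Protein was not measured in these files, and the paper reports an immunoblot as evidence that its PRMT5 shRNA silenced the target. Directions below go by the labels, and higher or lower describes the PRMT5 KD label against the control label.

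Libraries held 52185289 to 65964558 counts, of which rRNA genes took 15.3% and 14.2% in the control libraries, against 26.2% and 18.02% in the other group. The labelled squamous identity was not borne out by its defining markers, since KRT5, KRT6A, KRT14, KRT17, SFN, CDH1 and EPCAM each stayed under 2 CPM in every library. Of the other 3 genes on the list, DSP stood at 22.5 to 45.8 CPM, TP63 at 5.51 and 6.60 CPM against 1.74 and 3.01 CPM, and ITGB4 at 4.78 and 6.56 CPM against 0.757 and 0.565 CPM, the last 2 being lower. All 6 tested fibroblast markers of 7 listed were lower, against 24.3% of all genes tested. The 7 listed markers summed to 632.9 and 733.4 CPM against 87.8 and 97.4 CPM. TP63, ITGB4 and the fibroblast marker COL3A1 entered the test only through the control libraries, where they were high. Their calls are therefore no support for a difference. Of 28 S and G2/M phase genes, 27 were higher, against 21.2% of all genes tested. The 28 genes had a median of 1.75 on the log2 scale. Their summed levels were 1892 and 1359 CPM against 4871 and 5005 CPM. Endothelial and leukocyte lists summed to under 50 CPM throughout, CD14 (34.6 and 39.99 against 1.07 and 1.86 CPM) being nearly all of the leukocyte sum. In bulk RNA, fewer cells of a type and less RNA per cell cannot be told apart, and the part of these shifts in the members' values was not tested.

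Of the 57 members, 52 were protein-coding, passed the filter and were tested. The filter asked for an RPKM (CPM per kilobase of merged exons) of 0.5 or more in each library of at least 1 group. KDM4E had 0 counts in every library, which allows up to 3 counts in each. The antisense RNAs KDM4A-AS1 and KMT2E-AS1 entered only a fit over all names, and the Y-linked KDM5D and UTY are counted but their levels are not given. Calls needed both an FDR below 0.05 and a log2 fold change of 0.5 or more in size.

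Called members held both directions. Of the 52, 11 were higher, 10 were lower and 31 were not called, so that 40.4% were called against a background of 45.5% of the 11891 genes tested. The background by direction was 21.2% higher and 24.3% lower, close to the members' 21.2% and 19.2%, and the median log2 fold change was -0.00 over members and -0.01 over all genes. Without either control library, fewer members were called, and fewer of all genes tested as well. The 11 include KDM4D, which passed the filter only through the group in which it was high (RPKM 0.445 and 0.407 in control), so its call is no support for a difference, and 10 of the other 51 were higher. Among those 51, the largest changes in size belonged to SETD7, at -1.67, and to SUV39H1, SUV39H2, SETD9, EZH2 and EED, from 1.53 down to 1.11. The plot of fold changes by role shows each value. Of the 21 called members, 11 kept their call and direction under all 15 alternative fits, namely ASH1L, EED, EZH1, EZH2, KDM3A, KDM6A, SETD7, SUV39H1, SUV39H2, SUZ12 and, with the limit just given, KDM4D.

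**Figure D1:**
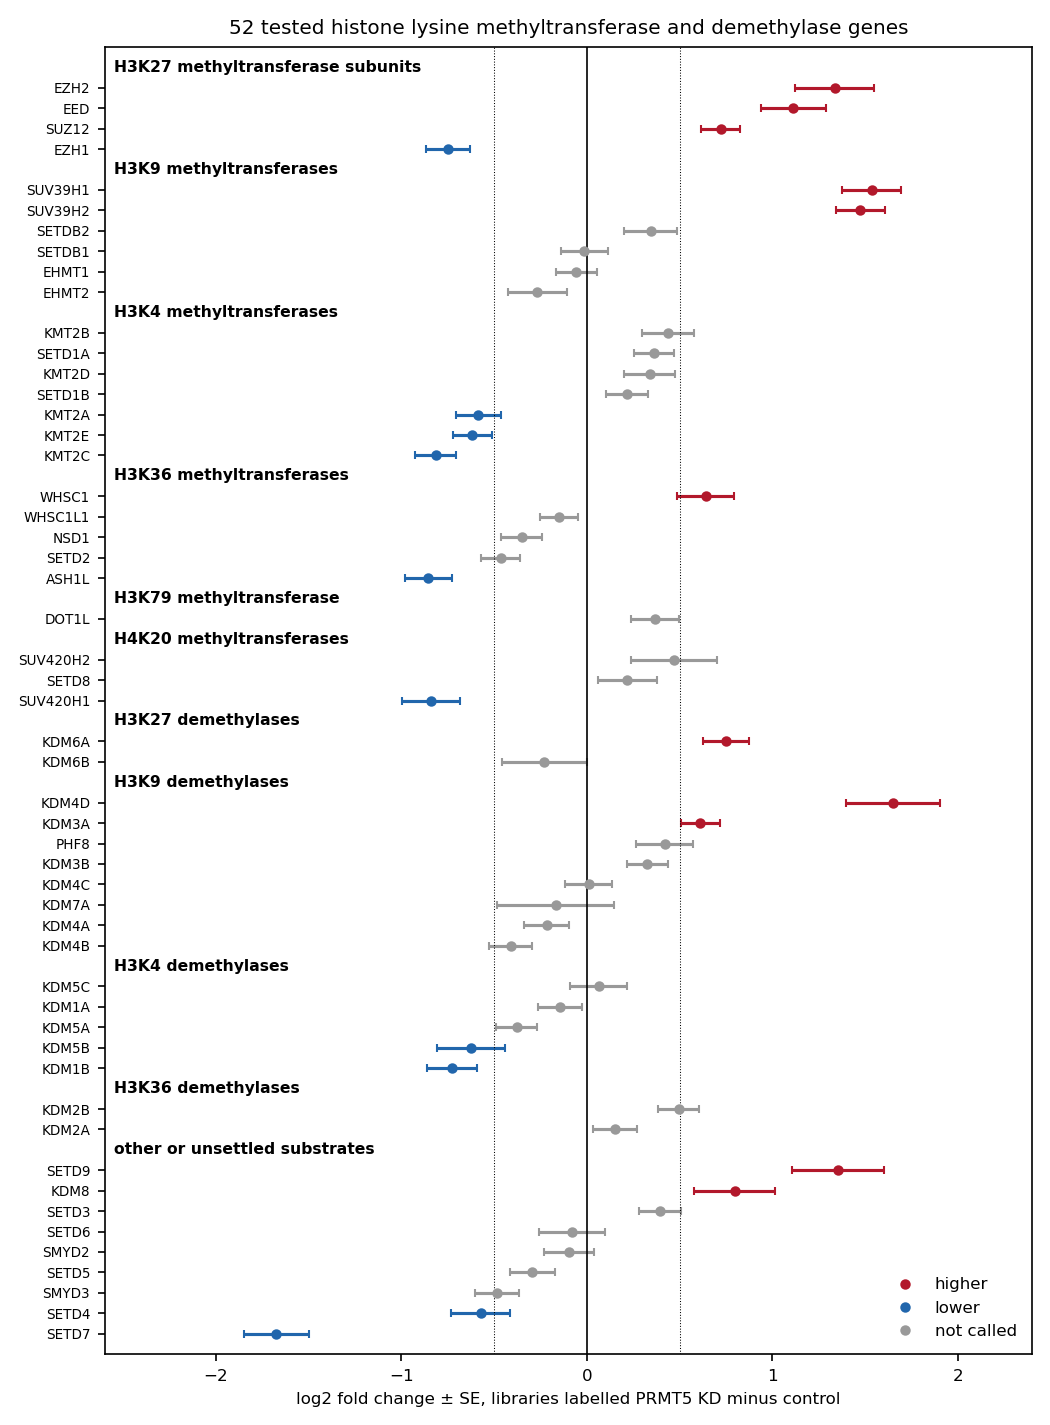
Each point is the log2 fold change of 1 of the 52 tested members, libraries labelled PRMT5 KD minus control (2 libraries each), with its SE as a bar, grouped by the mark the enzyme acts on; red was called higher, blue lower and grey not called, and dotted lines mark 0.5. EZH2, EED and SUZ12 lie to the right and EZH1 to the left, while SETD7 is the leftmost point at -1.67.

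Polycomb repressive complex 2 (PRC2), the H3K27 methyltransferase, was the one role in which every member was called (4 genes, against 45.5% of all genes). Its catalytic subunit EZH2, typical of dividing cells, had an RPKM of 2.82 and 1.89 in the libraries labelled control and of 6.40 and 5.46 in those labelled PRMT5 KD. The log2 fold change was 1.34 (SE 0.21, edgeR FDR 0.00360), a 2.52-fold difference. EZH1, the alternative catalytic subunit of resting cells, had an RPKM of 9.95 and 8.77 against 5.70 and 5.42 and went the other way, by -0.75 (SE 0.12, edgeR FDR 0.00289).

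EED, which binds trimethylated H3K27 and lets the complex spread, had an RPKM of 2.33 and 2.14 against 4.11 and 5.57, a log2 fold change of 1.11 (SE 0.18, edgeR FDR 0.00295). SUZ12, the scaffold of the complex, had 12.7 in both libraries labelled control and 21.3 and 20.6 in those labelled PRMT5 KD, a log2 fold change of 0.72 (SE 0.10, edgeR FDR 0.00207). EZH1 was thus the only one of these 4 genes that was lower. Within each library, EZH2 stood at 0.284 and 0.215 of EZH1 in control and at 1.12 and 1.01 of it in the other group. Per exon length, the pair thus went from EZH1 in excess to about equal levels. By counts not divided by length, EZH2 had 1203 and 1016 against 2751 and 3065 for EZH1 in control. In the other group EZH2 had 3281 and 2813 against 1894 and 1810, so the end point depends on the exon lengths used. The S and G2/M genes given above, which are also typical of dividing cells, were higher in the same libraries. A link between them and these 4 genes was not tested.

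The promoters of these 4 genes are shown because the genes move in both directions within one complex. They run from 250 bases before to 50 after the RefSeq start (build GRCh38.p14), 5′ to 3′ on the gene's strand, for EZH2 at chr7:148884242-148884541, minus strand, for SUZ12 at chr17:31936757-31937056, plus strand, for EED at chr11:86244503-86244802, plus strand and for EZH1 at chr17:42744991-42745290, minus strand. Capitals mark matches on either strand to an E2F element (TTTCGCGC or TTTGGCGC), a cell cycle homology region (CHR, TTTGAA) or a CCAAT box (CCAAT), elements known from promoters of cell cycle genes.
EZH2: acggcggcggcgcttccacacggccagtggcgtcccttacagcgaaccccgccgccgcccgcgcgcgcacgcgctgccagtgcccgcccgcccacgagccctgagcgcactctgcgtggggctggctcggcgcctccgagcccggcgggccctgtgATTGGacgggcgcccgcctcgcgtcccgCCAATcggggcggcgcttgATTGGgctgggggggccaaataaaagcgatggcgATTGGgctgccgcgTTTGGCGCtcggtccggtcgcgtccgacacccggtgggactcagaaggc
SUZ12: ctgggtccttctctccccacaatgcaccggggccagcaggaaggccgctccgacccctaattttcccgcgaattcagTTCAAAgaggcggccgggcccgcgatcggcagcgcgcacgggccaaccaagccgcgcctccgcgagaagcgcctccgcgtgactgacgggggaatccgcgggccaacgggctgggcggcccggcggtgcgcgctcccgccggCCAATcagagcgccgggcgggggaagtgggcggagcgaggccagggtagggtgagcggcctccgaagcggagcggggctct
EED: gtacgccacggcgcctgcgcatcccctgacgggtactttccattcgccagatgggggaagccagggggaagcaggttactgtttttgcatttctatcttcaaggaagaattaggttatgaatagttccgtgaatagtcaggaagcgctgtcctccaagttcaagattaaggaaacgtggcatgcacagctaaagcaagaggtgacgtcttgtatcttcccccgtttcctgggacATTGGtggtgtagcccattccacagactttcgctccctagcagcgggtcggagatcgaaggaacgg
EZH1: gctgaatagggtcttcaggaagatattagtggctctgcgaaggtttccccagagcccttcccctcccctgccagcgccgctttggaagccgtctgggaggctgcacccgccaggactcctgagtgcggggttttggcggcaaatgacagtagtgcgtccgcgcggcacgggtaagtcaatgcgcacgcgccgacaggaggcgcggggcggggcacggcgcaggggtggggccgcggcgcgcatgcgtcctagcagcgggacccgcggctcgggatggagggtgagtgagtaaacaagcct
EZH2 held 1 E2F match and 4 CCAAT matches in these letters, SUZ12 held 1 CHR and 1 CCAAT match, EED 1 CCAAT match and EZH1 none. No matches overlap one another in these sequences, and a match describes the sequence and not a bound site.

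Over the members, 51 of 55 names looked up had a promoter (KDM4E, SETD1B, DOT1L and WHSC1L1 had no entry). The CCAAT letters stood in 7 of the 11 members that were higher, in none of the 10 that were lower, and in 11 of 28 that were not called, against 34.6% of all 35116 promoters. CHR letters stood in 4 of the 11 higher members (SUZ12, WHSC1, KDM4D, SUV39H2), in 0 of the 10 lower and in 2 of the 28 not called, against 15.2% of all promoters. The E2F letters were in EZH2 alone among members and in 1.15% of all promoters. The CCAAT and CHR counts of higher members both include KDM4D, which passed the filter only through the group in which it was high. The 35116 promoters are more than the 18936 protein-coding names in the tables, so their shares are over an unlike set. These are counts on a fixed window and were not tested.

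Other listed PRC2 subunits and partners gave a mixed picture. Over all partner lists, 37.5% of 80 tested genes were called, against 45.5% of all genes tested. By direction, 23.75% were higher and 13.75% lower, against 21.2% and 24.3%. Of 9 such PRC2 subunits, 5 were higher (PHF19 at 1.43, C17orf96 at 1.24, MTF2 at 1.12, RBBP7 at 0.62 and RBBP4 at 0.53). PHF1 was lower at -0.66. PHF1, MTF2 and PHF19 are the 3 Polycomb-like proteins, which compete for the same place on SUZ12, so this family also held both directions. JARID2, which guides PRC2 to its targets, was not called at 0.17 (SE 0.31), its libraries labelled PRMT5 KD lying on either side of control at 42.1 and 22.2 CPM. Of 18 tested PRC1 genes, which bind the mark that PRC2 makes or ubiquitylate H2A, 2 were higher (PCGF6 at 1.38, L3MBTL2 at 0.75) and 3 lower (PHC3 at -0.88, PHC2 at -0.64, CBX7 at -0.54). The share called was 27.8%, under the 45.5% of all genes.

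Of the 2 tested erasers of H3K27 methylation, KDM6A alone was called, and it was higher. This was 50% called, against 45.5% of all genes. KDM6A (UTX), which works with the KMT2C and KMT2D complexes, had an RPKM of 1.82 and 1.56 against 2.75 and 2.92, a log2 fold change of 0.75 (SE 0.12, edgeR FDR 0.00338). KDM6B, an inducible enzyme, was not called at -0.23 (SE 0.23), and depended on the library compared. Without PRMT5 KD replicate 1 it was lower at -0.57 (edgeR FDR 0.00652), and without replicate 2 it stood at 0.08. The ratio of KDM6A to KDM6B was 0.155 and 0.149 in control against 0.236 and 0.400.

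**Figure D2:**
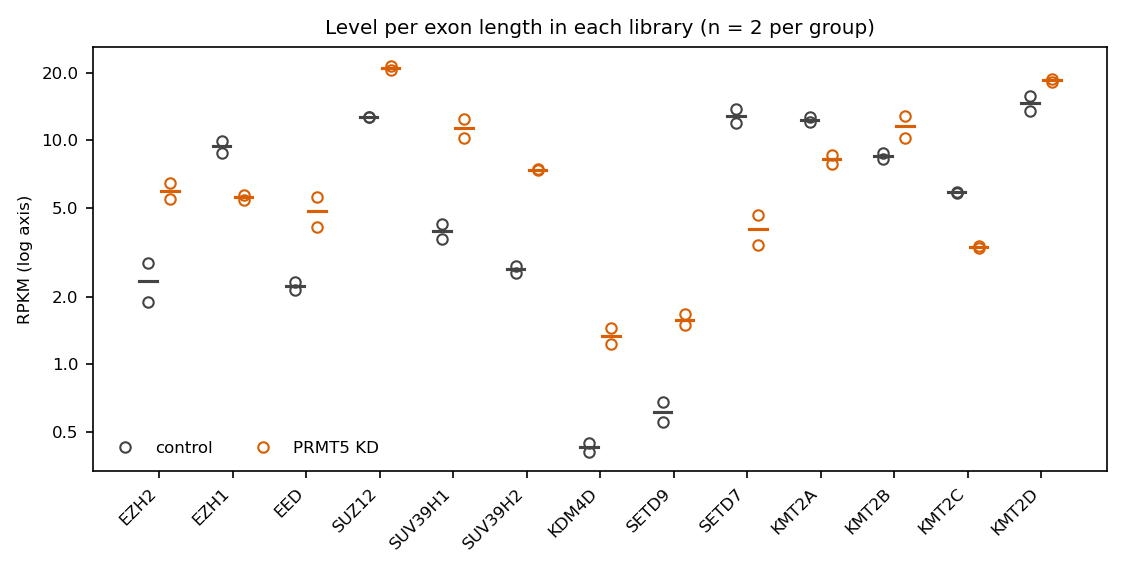
RPKM on a log axis in each of the 4 libraries (circles; horizontal lines are means, n = 2) for 13 members, in grey for control and in orange for PRMT5 KD. EZH2 and EZH1 start apart in control and meet, per exon length, under the PRMT5 KD label. There EZH2 had 6.40 and 5.46 and EZH1 5.70 and 5.42.

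Among H3K9 methyltransferases, the pair that makes trimethylated H3K9 at pericentric heterochromatin was higher and the other 4 were not called. This was 33.3% called, against 45.5% of all genes. SUV39H1 (chromosome X, 48695554 to 48709016, plus strand of GRCh38) had an RPKM of 4.22 and 3.61 in control and of 10.2 and 12.5 in the libraries labelled PRMT5 KD, a log2 fold change of 1.53 (SE 0.16, edgeR FDR 0.000729). SUV39H2 had 2.74 and 2.56 against 7.32 and 7.41, a log2 fold change of 1.48 (SE 0.13, edgeR FDR 0.000504). The 2 paralogs changed by like amounts, and their ratio overlapped between groups at 1.54 and 1.41 against 1.40 and 1.68. EHMT1 and EHMT2 (GLP and G9a), which mono- and dimethylate H3K9 in euchromatin, had -0.06 (SE 0.11) and -0.27 (SE 0.16), and SETDB1, recruited to repeats through TRIM28, had -0.01 (SE 0.13).

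Readers of H3K9 methylation moved in both directions. Of 13 listed readers and HUSH-related genes, 4 were higher, namely UHRF1 at 1.94, TRIM28 at 0.95, CBX1 at 0.72 and CBX3 at 0.58. CBX5 (HP1 alpha) was lower at -1.01, from 331.1 and 315.9 CPM to 163.5 and 157.6 CPM, as was the HUSH subunit FAM208A at -0.58. The share called in this list was 46.2%, near the 45.5% of all genes. The 3 HP1 genes CBX1, CBX3 and CBX5 thus did not share a direction, in contrast to the SUV39H pair that makes their binding site.

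Of the 8 tested H3K9 demethylases, 25% were called, against 45.5% of all genes. The 2 called were both higher, 1 of the 2 being KDM4D. This demethylase of di- and trimethylated H3K9 had few reads, 52 and 60 counts in control against 172 and 204 (RPKM 0.445 and 0.407 against 1.23 and 1.45), a log2 fold change of 1.65 (SE 0.25). It is given as a description, since it entered the test only through the libraries labelled PRMT5 KD. KDM3A, which removes mono- and dimethylation, had an RPKM of 4.77 and 4.98 against 7.31 and 7.57, a log2 fold change of 0.61 (SE 0.11, edgeR FDR 0.00398). The paralogs KDM4A, KDM4B and KDM4C had values of -0.22, -0.41 and 0.01, none of them called.

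The promoters of SUV39H2 (chr10:14878616-14878915, plus strand) and KDM4D (chr11:94973459-94973758, plus strand), a writer and an eraser of the same mark, are shown in the same form as above.
SUV39H2: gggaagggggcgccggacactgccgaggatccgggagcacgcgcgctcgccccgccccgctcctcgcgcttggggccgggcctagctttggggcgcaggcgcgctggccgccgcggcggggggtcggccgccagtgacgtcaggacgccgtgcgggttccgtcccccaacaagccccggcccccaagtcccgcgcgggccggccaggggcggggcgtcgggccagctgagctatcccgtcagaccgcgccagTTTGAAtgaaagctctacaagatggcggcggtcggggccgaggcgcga
KDM4D: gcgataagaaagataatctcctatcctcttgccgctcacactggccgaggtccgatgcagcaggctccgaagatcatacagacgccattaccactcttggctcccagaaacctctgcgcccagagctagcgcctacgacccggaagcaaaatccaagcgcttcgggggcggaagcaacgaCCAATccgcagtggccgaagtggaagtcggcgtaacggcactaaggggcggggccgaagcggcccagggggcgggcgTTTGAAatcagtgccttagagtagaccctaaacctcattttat
Both held 1 CHR match, and KDM4D also 1 CCAAT match. SUV39H1 held none of the 3 motifs in its window.

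The H3K4 methyltransferases fell into 2 sets. KMT2A (MLL1), which acts at promoters of developmental genes, had an RPKM of 12.6 and 12.02 against 8.58 and 7.85 and was lower by -0.58 (SE 0.12, edgeR FDR 0.00846). KMT2C, which monomethylates H3K4 at enhancers, had 5.83 and 5.86 against 3.36 and 3.28 and was lower by -0.82 (SE 0.11, edgeR FDR 0.00172). KMT2E, a relative with little or no methyltransferase activity, was also lower, by -0.62. KMT2A lost its call without either control library (edgeR FDR 0.0707 and 0.0611). Replicates lay close together in these genes.

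Their closest paralogs stood on the other side of 0 without being called. KMT2B, the paralog of KMT2A, had an RPKM of 8.77 and 8.27 against 10.2 and 12.9, a log2 fold change of 0.44 (SE 0.14, edgeR FDR 0.0373) that lay under the fold threshold. KMT2D, the paralog of KMT2C, had 15.8 and 13.4 against 18.2 and 18.7, a log2 fold change of 0.34 (SE 0.14, edgeR FDR 0.0785). SETD1A and SETD1B, which make most trimethylated H3K4, had 0.36 and 0.22. As ratios chosen after these values were seen, KMT2B stood at 0.695 and 0.688 of KMT2A in control against 1.19 and 1.64, and KMT2D at 2.71 and 2.29 against 5.42 and 5.69 of KMT2C.

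The 2 sets also differed in base composition. The longest annotated transcripts of KMT2B, KMT2D, SETD1A and SETD1B held 59.7% to 63.5% G and C, and those of KMT2A, KMT2C and KMT2E 41.9% to 46.9%. When fold changes were corrected for exon length and GC, none of the 7 was called lower and the 4 GC-rich genes were called higher, KMT2D at 0.94 and KMT2B at 0.89, while KMT2A stood at -0.11 (edgeR FDR 0.471) and KMT2C at -0.29 (edgeR FDR 0.0666). KMT2E, at -0.36 (edgeR FDR 0.0288), passed the FDR and missed the fold threshold. The order between paralogs was thus the same in both fits, but which of them differed from control was not. Of the partners in COMPASS and MLL complexes, 4 of 14 were higher and none lower, so 28.6% were called against 45.5% of all genes. The 4 include the shared core subunits WDR5 (0.99) and ASH2L (0.57). The other shared core subunits listed, RBBP5 and DPY30, were not called.

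Of the 5 tested H3K4 demethylases, 2 were called lower and none higher. This was 40% called, against 45.5% of all genes. KDM1B (LSD2) had an RPKM of 3.96 and 3.87 against 2.24 and 2.49, a log2 fold change of -0.73 (SE 0.13, edgeR FDR 0.00514), with an FDR of 0.0502 without control replicate 2. KDM5B had 8.64 and 8.35 against 6.51 and 4.50, at -0.63 (SE 0.18, edgeR FDR 0.0294), and lost its call in 7 of the 15 alternatives. KDM1A (LSD1), KDM5A and KDM5C were not called at -0.15, -0.38 and 0.06. With the length and GC correction KDM1B alone was called lower, and KDM1A and KDM5C stood at 0.22 and 0.41. Of 10 tested genes of CoREST, the complex that carries KDM1A, HDAC2 was higher at 0.63 and RCOR3, PHF21A, ZMYM2 and ZMYM3 were lower. This was 50% called, against 45.5% of all genes.

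**Figure D3:**
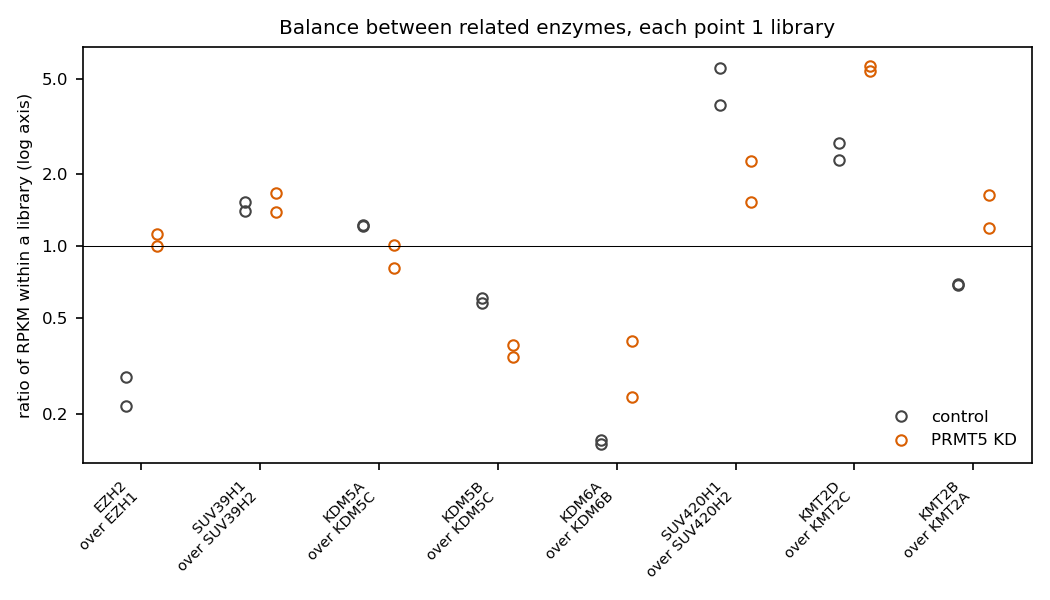
Ratio of RPKM between related enzymes in each library, on a log axis with a line at 1, in grey for control and in orange for PRMT5 KD. EZH2 over EZH1 moves from 0.284 and 0.215 to 1.12 and 1.01, SUV39H1 over SUV39H2 overlaps between groups, and the last 2 ratios were chosen after their values were seen.

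Among H3K36 methyltransferases, ASH1L, which counteracts Polycomb, had an RPKM of 17.7 and 16.5 against 10.2 and 8.70 and was lower by -0.86 (SE 0.13, edgeR FDR 0.00233). WHSC1 (NSD2), which dimethylates H3K36, had 8.17 and 6.28 against 10.9 and 11.7 and was higher by 0.64 (SE 0.15, edgeR FDR 0.0134). Its paralogs NSD1 and WHSC1L1 were not called at -0.35 and -0.15, nor was SETD2, the trimethylating enzyme, at -0.47 (SE 0.11). Without control replicate 2, WHSC1 stood at 0.46 (edgeR FDR 0.103).

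The H3K36 demethylase KDM2B, which also brings PRC1 to CpG islands, had an RPKM of 3.15 and 3.45 against 4.73 and 4.57 and missed the fold threshold at 0.49 (SE 0.11, edgeR FDR 0.0109). It was called higher in 10 of the 15 alternatives. KDM2A, with the highest RPKM of all members in both groups, had 0.15 (SE 0.12). DOT1L, the H3K79 enzyme, stood at 0.37 (SE 0.13), and of 6 partners of its complex only MLLT3 was called, lower at -0.52. For these partners this was 16.7% called, against 45.5% of all genes.

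For H4K20, SUV420H1, which di- and trimethylates the residue, had an RPKM of 3.63 and 3.20 against 2.12 and 1.70 and was lower by -0.84 (SE 0.16, edgeR FDR 0.00536), but not called without control replicate 1 (edgeR FDR 0.0551). Its paralog SUV420H2 was not called at 0.47 (SE 0.23), and the ratio between them went from 5.57 and 3.92 to 2.28 and 1.53. SETD8, the monomethylating enzyme, most abundant around mitosis, was not called at 0.22 (SE 0.16) and its groups overlapped. Of the S and G2/M genes, 27 of 28 were higher, against 21.2% of all genes.

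Of the 9 SET and Jumonji proteins with other or unsettled substrates, SETD7, which monomethylates H3K4 and many proteins that are not histones, had the largest change in size among the members tested. It lies on the minus strand of chromosome 4 from 139495941 to 139606699 (GENCODE release 44, GRCh38). Its RPKM was 11.9 and 13.7 in control and 4.62 and 3.40 in the libraries labelled PRMT5 KD, a 3.19-fold lower level (log2 fold change -1.67, SE 0.18, edgeR FDR 0.000808). SETD9 (chromosome 5, 56909260 to 56925532, plus strand), whose substrates are little known, was higher at 1.36 (SE 0.25, edgeR FDR 0.00497) from 59 and 92 counts against 215 and 193, but not called without control replicate 1 (edgeR FDR 0.0579). KDM8, a Jumonji protein with hydroxylase activity, was higher at 0.80 but lost its call in 4 of the 15 alternatives, and SETD4 was lower at -0.57 but lost it in 6, in both cases also without either control library. The genes SETD3, SETD5, SETD6, SMYD2 and SMYD3 were not called. In a list of related SET, PR and Jumonji genes outside the rule, 3 of 10 tested were higher (SMYD5, SMYD4 and C14orf169) and none lower. This was 30% called, against 45.5% of all genes.

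The levels were also ordered by mean RPKM over the 55 names whose levels are given, without a test between neighbours. KDM2A and KDM3B came first and second in both groups. SUV39H1 went from place 37 in control to 10, SUV39H2 from 42 to 21 and EZH2 from 43 to 26, whereas SETD7 went from 8 to 35 and ASH1L from 5 to 14. Summed RPKM of the 4 PRC2 genes was 27.8 and 25.5 in control against 37.6 and 37.0, that of the 6 H3K9 methyltransferases was 24.7 and 24.8 against 33.4 and 38.3, and that of the 7 H3K4 methyltransferases overlapped between groups (62.0 and 58.6 against 60.5 and 64.3).

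Members had long merged exons, a measure that counts every annotated isoform and is not the length of a transcript. Fold changes fell with this merged length in these libraries. The members' median merged exon length was 9817 bases against 5390 over all genes tested, and 19 of 52 lay in the longest decile of genes. Over all genes, the median log2 fold change ran from 0.24 in the shortest decile to -0.29 in the longest, where 37.1% were lower and 9.84% higher. Across the 52 members, Spearman's rho between exon length and log2 fold change was -0.39, and across all genes it was -0.21 (genes share the libraries and are not replicates). KDM4D, SETD9, SUV39H1 and SUV39H2, all higher, were the 4 shortest tested members, and KMT2A and KMT2C, both lower, the 2 longest. KDM3A, KDM6A and WHSC1 were higher although in the longest decile.

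**Figure D4:**
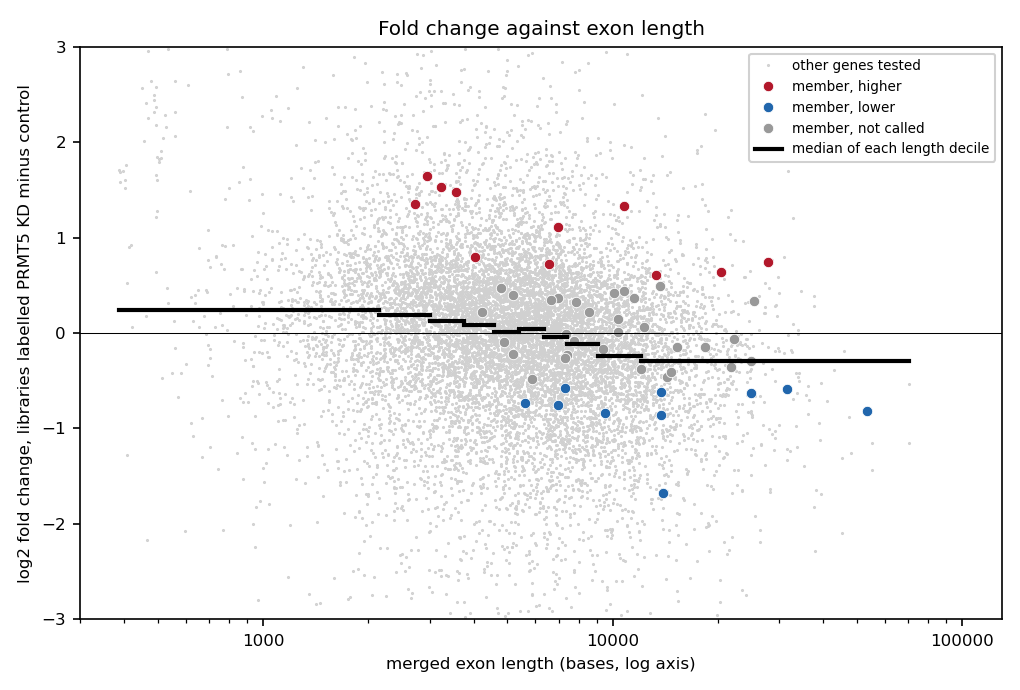
Log2 fold change (libraries labelled PRMT5 KD minus control) against merged exon length in bases on a log axis, with members coloured by call, other tested genes as small dots and black bars at the median of each length decile. The bars fall from 0.24 to -0.29; genes beyond 3 in either direction lie outside the axis.

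With the length and GC correction, 18 members (34.6%) were higher and 7 (13.5%) lower, against 21.0% and 23.2% of all genes tested in the same fit. KMT2A, KMT2C, KMT2E and KDM5B lost their call, DOT1L, KDM2B, KMT2B, KMT2D, PHF8, SETD1A and SETD1B were called higher, and SMYD3 was called lower at -0.54. The other 17 called members kept both call and direction, among them all 4 PRC2 genes and the SUV39H pair. Scaling by total counts alone, which moved the median of all genes to 0.17, gave 20 members higher (38.5%) and 6 lower (11.5%) against 29.5% and 18.5% of all genes, and raised the share of higher among all calls from 46.5% to 61.4%.

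**Figure D5:**
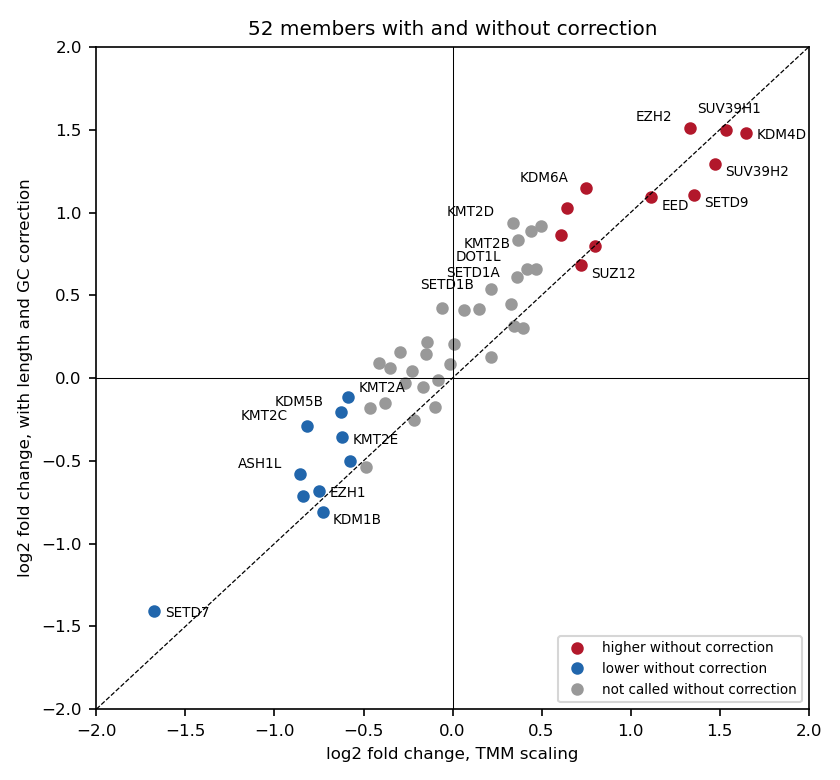
Log2 fold change of the 52 tested members with the length and GC correction (vertical axis) against that without it (horizontal axis), coloured by the call without correction, with a dashed line of equality. Most points lie above the line, KMT2D moving from 0.34 to 0.94 and KMT2A from -0.58 to -0.11, while SETD7 (-1.67 and -1.41) and EZH2 (1.34 and 1.51) keep their side.

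The antisense RNAs were compared in the fit over all 16300 names with enough counts, in which 42.4% were called. KMT2E-AS1, which starts beside KMT2E on the opposite strand, had 505 and 447 counts against 285 and 312 and was lower by -0.70 (edgeR FDR 0.0324). KDM4A-AS1 had 22 to 27 counts in each library and a value of 0.08 (edgeR FDR 0.878). The library kit keeps strand, but whether counting used it is not given in the sources used here, so reads of these genes and of their partners on the other strand may not be told apart.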

How the data were processed

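RNA-seq of total RNA (directional kit, Singular Genomics G4) was compared between 2 control and 2 PRMT5 KD libraries. The authors deposited estimated counts per gene name, not normalized, 1 table per library. The submitters' processing notes name FastQC, Trim Galore, STAR, Salmon, DESeq2 and GRCh38, whereas the methods name FeatureCounts on protein-coding genes. The step that made the estimates was not settled here. Of 29744 entries, 28 spreadsheet date names were left out. Names were matched to GENCODE release 44 for biotype and merged exon length, by current symbol (21672), RefSeq gene number (1118) or synonym (1542). Merged exon lengths count every annotated isoform, so RPKM is understated for genes with many.

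Counts were rounded and tested with edgeR 4.0.16 in R 4.3.3 (quasi-likelihood, robust, TMM, Benjamini-Hochberg over 11891 genes), without a replicate term. The biological coefficient of variation was 0.142. CPM and RPKM are on the TMM scale. Alternatives were DESeq2 1.42.0, other scalings and filters, a replicate block, splines on length and GC (4 degrees of freedom) and leaving out each library. The test was checked on simulated data. Members and gene lists were chosen with earlier results of these data known. Genes given in full were called members with a log2 fold change of at least 1, EZH1, EZH2, EED, SUZ12 and KMT2A to KMT2D. Other members named with library values were chosen after these were seen. With 2 libraries per group, no exact permutation test can pass 0.05. Counts reflect counting error and PCR copies.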

Additional observations from a re-analysis of the deposited data

How the results depend on the processing

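Of the 21 called members, 11 (8 higher, 3 lower) kept call and direction in all 15 alternative fits at the fold threshold of 0.5, and no called member changed sign in any of them. At a log2 threshold of 1, 7 members (6 higher, 1 lower) and 6 partner genes were called. The share of all genes passing that threshold is not given here, so these counts have no background beside them. Total counts alone gave 20 higher and 6 lower, the length and GC correction 18 higher (7 lower), and that correction with the replicate block 17 higher and 6 lower. With the replicate block alone, 10 members were higher and 10 lower, KDM8 being lost (edgeR FDR 0.0526). The deviations of same-numbered libraries correlated at -0.10 across genes, so the numbers gave no pairing, and a crossed block, added after the data were seen, gave 11 and 10. Leaving out 1 library gave 15 to 24 called members, 9 to 13 higher and 6 to 11 lower, and 16 to 30 partner genes against 30 with every library. The lowest counts came without either control library (15 members each; 17 and 16 partner genes). PRMT5 ranged from 0.57 to 0.78 over these fits, and its FDR was 0.0678 without control replicate 2 (value 0.58). With 1 control library left, its spread is taken from the other group.

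The members below changed sign under an alternative and were called in neither fit. KDM4B (-0.41, edgeR FDR 0.0243) and NSD1 (-0.35, edgeR FDR 0.0354) had passed the FDR but not the fold threshold. Under total counts alone these were EHMT1 (0.121), KDM1A (0.0362), SETD6 (0.101), SETDB1 (0.166), SMYD2 (0.0842) and WHSC1L1 (0.0296). Under the length and GC correction they were EHMT1 (0.422), KDM1A (0.216), KDM4B (0.0915), KDM6B (0.0411), NSD1 (0.0607), SETD5 (0.158), SETDB1 (0.0846) and WHSC1L1 (0.143), and with the block added 0.422, 0.214, 0.0896, 0.000833, 0.063, 0.163, 0.0811 and 0.143 in the same order. EHMT1 and SETDB1 were at 0.00682 and 0.0512 with filterByExpr, SETDB1 at 0.0393 with no filter, and EHMT1, SETD6 and SETDB1 at 0.028, 0.00388 and 0.0719 over all names. When 1 library was left out, EHMT1 ranged from -0.108 to 0.0347, KDM4C from -0.012 to 0.0747, KDM5C from -0.0983 to 0.245, KDM6B from -0.572 to 0.0778, KDM7A from -0.663 to 0.228, SETD6 from -0.275 to 0.132, SETDB1 from -0.109 to 0.119 and SMYD2 from -0.215 to 0.0566. KDM6B and KDM7A were called lower without PRMT5 KD replicate 1. The cause of these changes was not tested. Each tested member had at least 52 counts in every library, and KDM4D, SETD9, SUV420H2 and KDM8 had the fewest.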
